A study of Homo sapiens with 2 samples.

Results

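The cells lowest in proliferation genes were taken from 2 droplet libraries of established Ewing sarcoma lines, CHLA9 and TC71, which carry the EWSR1-FLI1 fusion. Ewing sarcoma is a tumor of bone and soft tissue. A barcode was kept when it held 5000 or more unique molecular identifiers (UMIs, each standing for 1 captured transcript) from 2000 or more genes and when mitochondrial transcripts were 15% of its UMIs or less. In each library the lowest 10% of kept cells were chosen by the summed UMIs of MKI67, TOP2A, PCNA, MCM2, MCM7, TYMS, RRM2, CDK1, CENPF and UBE2C divided by the UMIs of the cell. This gave 624 low cells of 6253 kept cells, 452 of 4524 in CHLA9 and 172 of 1729 in TC71, each set against the other kept cells of its own library. The medium was IMDM with 20% serum and an insulin, transferrin and selenite supplement for CHLA9, and RPMI with 10% serum for TC71. The labels give no drug treatment or genetic change for either line, and the CHLA9 library was sequenced again on a second instrument. Medium, serum and sequencing therefore cannot be told apart from the line.

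Each line is 1 library and its cells are no replicates, so no test was made between low and other cells and no p-value is given. Levels are UMIs summed over cells, per 1000000 summed UMIs (CPM), and differences are log2 ratios of the CPM of low cells to that of other cells. Exact 95% Poisson intervals of levels and exact conditional intervals of ratios cover counting error only. Exact binomial intervals of shares of cells take the cells of a library as independent draws and cover no spread between libraries. A gene was counted as lower or higher past 1.5-fold, which is 0.58 on the log2 scale, among genes of at least 20 CPM over all kept cells of the line. Summed over cells, 14225555 UMIs of CHLA9 and 4805938 of TC71 stood behind the levels of the low cells. Of the kept barcodes 3 occurred in both libraries, and 0 of these were low cells.

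Dividing cells transcribe their cell cycle genes in waves. E2F factors drive genes of DNA replication at the entry into S phase, histone genes are made while DNA is copied, and a later wave through B-MYB, the MuvB complex and FOXM1 supplies the motors, kinases and kinetochore proteins of mitosis. In G1 and in cells that have left the cycle the DREAM complex keeps many of these genes silent, in part through a promoter element named the cell cycle genes homology region (CHR), often beside CCAAT boxes bound by NF-Y. Transcripts of the mitotic wave are lowest in G1, after the proteins of mitosis have been degraded.

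The promoters of the genes that were lower in the low cells of both lines often held a CHR match. They are shown for the first 4 of these genes that hold a match, ordered by the smaller of their changes in the 2 lines. The windows run from 250 bases before to 50 bases after the RefSeq start on GRCh38.p14, 5′ to 3′ on the strand of the gene, and matches on either strand are in capitals. A CHR match has the letters TTTGAA on either strand, and a CCAAT match likewise has CCAAT, with no base shared between the motifs in these windows.
PIF1, chr15:64825598-64825897, minus strand: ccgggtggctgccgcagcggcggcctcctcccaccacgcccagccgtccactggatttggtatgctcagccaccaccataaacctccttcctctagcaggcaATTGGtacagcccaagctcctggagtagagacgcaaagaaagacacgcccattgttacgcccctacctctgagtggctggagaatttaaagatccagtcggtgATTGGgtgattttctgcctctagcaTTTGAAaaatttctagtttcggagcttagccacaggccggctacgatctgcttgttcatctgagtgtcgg
CKAP2L, chr2:112764560-112764859, minus strand: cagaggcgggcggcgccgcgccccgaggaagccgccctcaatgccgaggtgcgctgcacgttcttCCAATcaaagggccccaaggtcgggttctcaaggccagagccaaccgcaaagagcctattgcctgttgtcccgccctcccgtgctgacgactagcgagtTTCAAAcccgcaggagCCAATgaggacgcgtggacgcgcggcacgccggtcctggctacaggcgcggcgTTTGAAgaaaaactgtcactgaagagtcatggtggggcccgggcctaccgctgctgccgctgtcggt
HJURP, chr2:233854486-233854785, minus strand: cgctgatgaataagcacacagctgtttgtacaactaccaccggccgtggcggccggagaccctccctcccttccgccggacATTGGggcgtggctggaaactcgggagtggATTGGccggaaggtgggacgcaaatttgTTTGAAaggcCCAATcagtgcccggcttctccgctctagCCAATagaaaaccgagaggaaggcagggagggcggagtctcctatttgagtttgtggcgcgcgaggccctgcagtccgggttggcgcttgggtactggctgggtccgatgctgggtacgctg
KIF23, chr15:69414099-69414398, plus strand: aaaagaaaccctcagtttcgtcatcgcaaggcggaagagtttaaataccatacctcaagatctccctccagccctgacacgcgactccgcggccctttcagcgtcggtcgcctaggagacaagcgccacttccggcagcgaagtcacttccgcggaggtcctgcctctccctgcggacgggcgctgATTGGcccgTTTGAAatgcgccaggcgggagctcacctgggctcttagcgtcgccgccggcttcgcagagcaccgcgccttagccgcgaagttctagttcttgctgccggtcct

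In PIF1 the CHR match began 20 bases before the start, in KIF23 55 and in HJURP 111 bases before it. CKAP2L held 2 matches, 17 and 86 bases before its start. Each of these promoters also held a CCAAT match, from 1 in KIF23 to 4 in HJURP. Of the 121 genes lower in both lines, 105 matched a RefSeq promoter, and 50 of these (47.6%) held a CHR match, against 10.7% of 4491 matched genes tested in both lines and 15.2% of all 35116 windows. A CCAAT match was found in 67.6% of the lower genes and 39.3% of the genes tested, and both together in 36.2% and 5.05%. The E2F letters searched, TTTCCCGC, TTTGGCGC, TTTGCCGC and TTTCGCGC, were in 11.4% of the lower genes, 6.95% of the genes tested and 3.31% of all windows. The amino acid response element TGATGCAA was in 0.952%, 0.490% and 0.866%. For genes with several starts the most upstream window was used, and with any window counted the CHR shares were 50.5% and 14.0%. These are counts of letters and were not tested as binding sites. The 121 genes were called in cells chosen in part for low mitotic genes, so the CHR share is not independent of the rule.

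The score had no gap at the limit. Low cells held 0.902 to 13.65 rule UMIs per 10000 in CHLA9, with a median of 10.5, and 2.62 to 12.6 in TC71, with a median of 11.1. The last low cell and the first other cell stood at 13.65 and 13.6507 in CHLA9 and at 12.5532 and 12.5635 in TC71. Within 1 unit of the limit lay 86 low and 95 other cells of CHLA9 and 72 low and 79 other cells of TC71, so the low cells are the end of a range and not a separate group. Every low cell held rule UMIs, at least 2 in CHLA9 and 4 in TC71.

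**Figure D1:**
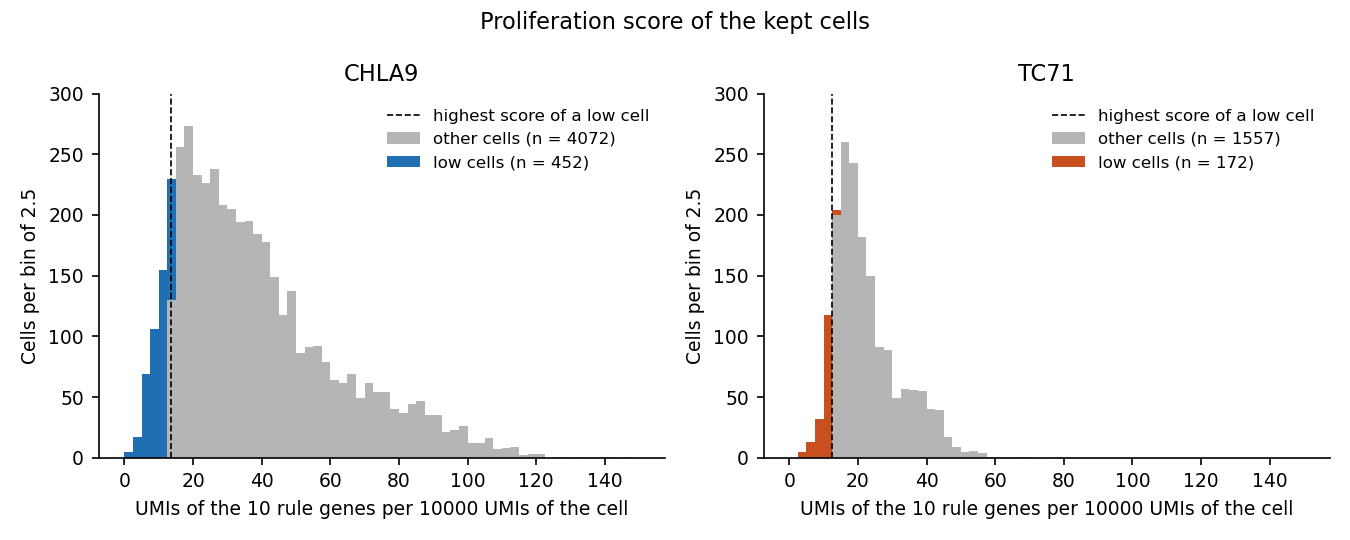
Histograms of the proliferation score of kept cells, with the UMIs of the 10 rule genes per 10000 UMIs on the x axis and cells per bin of 2.5 on the y axis. Low cells are coloured and stacked on the grey other cells, and the dashed lines at 13.65 in CHLA9 and 12.6 in TC71 fall inside a continuous distribution.

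Low cells held fewer transcripts. Their median was 29714.5 UMIs in CHLA9 (quartiles 26330.2 to 33620.2), against 35432 in the other cells (29500.2 to 44769.5), and 29090.5 in TC71 (22025 to 33509.5), against 33891 (27624 to 41053). When each cell was thinned to 5000 UMIs, low cells still showed fewer genes, with medians of 2211 against 2296 in CHLA9 and 2057.5 against 2147 in TC71. Mitochondrial shares went opposite ways, with medians of 8.38% in low and 7.52% in other cells of CHLA9 and 8.51% and 9.10% in TC71. Cells under 10000 UMIs made up 8.14% of the low cells of TC71 and 2.89% of its other cells, and 0.885% and 0.246% in CHLA9. The part of depth in the results below was not tested apart from the alternatives on UMIs, under which the mitotic list stayed lower.

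The low cells as a group held the marker transcripts of Ewing sarcoma cells. CD99, the surface protein used in diagnosis, stood at 1276 CPM in low and 1129 in other cells of CHLA9 and at 407 and 401 in TC71. NR0B1, a nuclear receptor gene activated by the fusion, was at 61.4 and 46.9 CPM in CHLA9 and at 123 and 122 in TC71. FLI1 itself was at 37.6 and 38.2 CPM in CHLA9 and at 20.8 and 23.2 in TC71, with intervals of both log2 ratios holding 0. EWSR1 gave log2 ratios of -0.11 (interval -0.17 to -0.04) and -0.31 (-0.46 to -0.17). Of the other markers, NKX2-2 gave 0.27 and -0.03, STEAP1 0.05 and -0.07, PRKCB 0.11 and -0.05, and CCND1 -0.09 and -0.10. BCL11B went opposite ways, at 0.49 (0.44 to 0.54) in CHLA9 and -0.20 (-0.36 to -0.03) in TC71. These 3' counts of FLI1 cannot tell the fusion transcript from FLI1 itself, and those of EWSR1 do not measure the fusion.

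Markers of other cell types were low. The immune list summed to 2.60 CPM in low and 2.57 in other cells of CHLA9 and to 3.75 and 1.92 in TC71. Its log2 ratios were 0.02 (-0.51 to 0.50) and 0.96 (0.15 to 1.69), the latter from 18 UMIs in the low cells. In the low cells of TC71 CD68 stood at 3.12 CPM and CD14 at 0. The endothelial list summed to 14.3 and 10.3 CPM in CHLA9 and 16.0 and 14.3 in TC71, and the fibroblast list to 73.0 and 68.5 and to 15.8 and 14.6. The epithelial list was higher in low cells, at 167 against 123 CPM and 420.5 against 295, and nearly all of it was KRT18, a keratin also made by many tumor lines, while KRT8 stood between 6.66 and 11.7 CPM.

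Among genes of at least 20 CPM, more were lower than higher in the low cells. In CHLA9, 321 of 6602 genes were lower past 1.5-fold (4.86%) and 14 were higher (0.212%). In TC71, 224 of 5919 genes were lower (3.78%) and 5 were higher (0.0845%). Of 5375 genes tested in both lines, 121 were lower in both (2.25%) and 0 were higher in both (0.0%). The 121 genes were 45.5% of those lower in CHLA9 and 58.7% of those lower in TC71, and 110 of them differed more in CHLA9. Among the 121 were 38 genes of the mitotic list, 5 histone genes and 2 S-phase genes, and 72 were in no list. With no minimum beyond 1 UMI in low and in other cells the balance turned, with 1479 genes lower and 2878 higher in CHLA9, 1714 and 1911 in TC71, and 363 and 467 in both. Over all genes tested the median log2 ratio was -0.04 in CHLA9 and -0.08 in TC71.

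**Figure D2:**
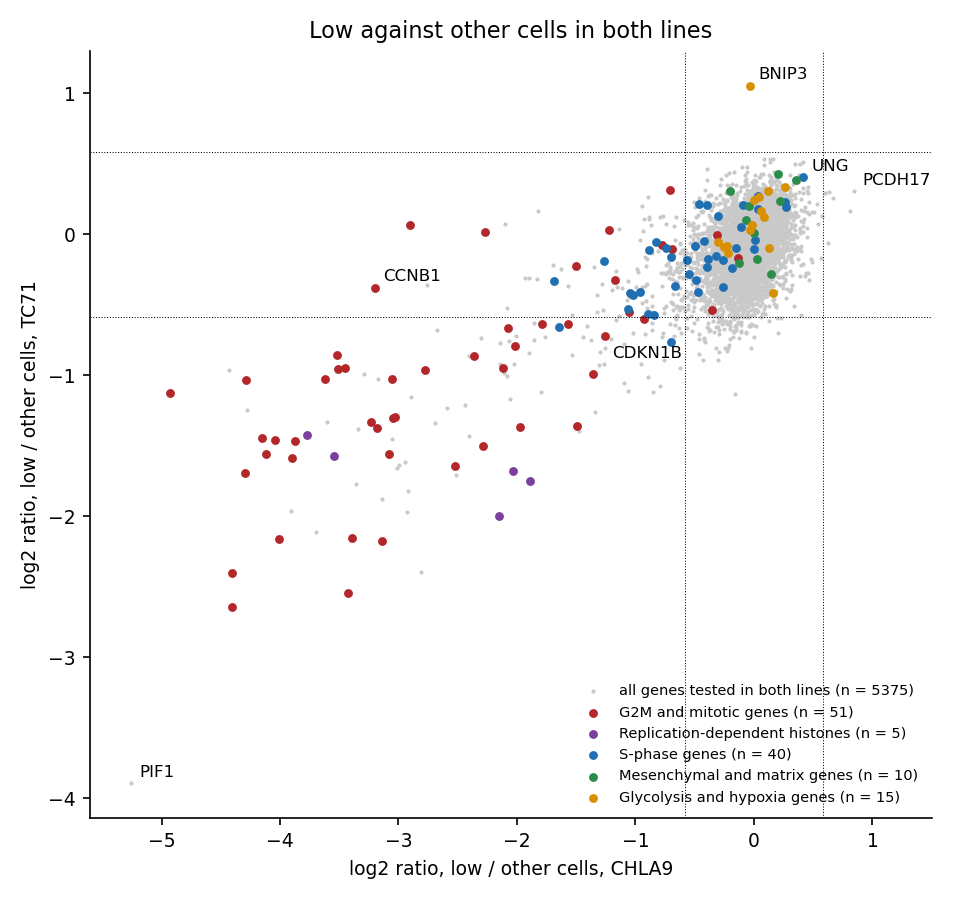
Log2 ratio of CPM, low over other cells, for 5375 genes, with CHLA9 on the x axis, TC71 on the y axis and dotted lines at 1.5-fold. Mitotic (red) and histone genes (purple) extend to the lower left, PIF1 is the farthest at -5.25 and -3.89, and no gene lies past 1.5-fold in the upper right.

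Among genes tested in both lines, PIF1 had the largest difference by the smaller of its ratios. It encodes a DNA helicase that unwinds G-quadruplex DNA and acts at telomeres (chr15:64815632-64825668). PIF1 stood at 1.41 CPM in low and 53.6 CPM in other cells of CHLA9 and at 2.70 and 40.2 CPM in TC71, log2 ratios of -5.25 (-5.97 to -4.63) and -3.89 (-4.80 to -3.12). When the 5 S-phase genes of the rule alone chose the cells, the PIF1 ratio was -0.58 in CHLA9 and 0.47 in TC71. With the kept cells of each line cut into 10 equal bins by the score, bin 1 being the low cells, PIF1 in CHLA9 was at 1.99 CPM or less in the 4 lowest bins and at 179 CPM in bin 10.

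Genes of the centromere were also lower. HJURP, the chaperone that loads the centromeric histone, was at 2.11 against 44.6 CPM in CHLA9 and 7.70 against 40.7 in TC71. CENPA, that histone, was at 6.54 against 68.5 CPM and at 12.3 against 54.7. NDC80, which ties kinetochores to microtubules, was at 5.90 against 95.1 CPM in CHLA9 and 16.9 against 75.4 in TC71. SGO2, which protects sister cohesion, gave log2 ratios of -3.36 and -1.77, and INCENP, a subunit of the chromosomal passenger complex, -2.92 and -1.97. With the 5 S-phase genes alone the ratios in TC71 were -0.024 for HJURP, 0.35 for CENPA, 0.16 for NDC80, 0.65 for SGO2 and 0.34 for INCENP.

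Spindle and cytokinesis genes followed the same direction. ASPM, a spindle pole protein, was at 30.2 against 452 CPM in CHLA9 and 75.7 against 295 in TC71. KIF23, a motor of the central spindle, was at 10.8 against 94.9 CPM and at 18.9 against 85.5. The log2 ratios were -3.70 and -2.11 for KIF14, -3.14 and -1.88 for KIFC1, -4.40 and -2.64 for CKAP2L, and -2.81 and -2.40 for FAM83D. CDCA2, which targets a phosphatase to chromatin, gave -3.43 and -2.54, and CCNF, a cyclin that serves as the substrate receptor of a ubiquitin ligase, -2.92 and -1.82. These 8 genes too were above 0 in TC71 with the 5 S-phase genes alone, from 0.066 for CKAP2L to 0.63 for KIF14, and below 0 in CHLA9.

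The list of G2M and mitotic genes, from which the rule genes had been removed, was lower in both lines but not to the same degree. In CHLA9, 49 of 52 tested members were lower past 1.5-fold, with a median log2 ratio of -2.97. In TC71, 38 of 51 were, with a median of -0.99, and all 38 were also lower in CHLA9. The summed list stood at 3585 CPM in low and 10248 in other cells of CHLA9, a log2 ratio of -1.52, and at 6387 and 9319 CPM in TC71, a ratio of -0.54. Most cells carried this difference in CHLA9: 76.8% of low cells (exact binomial interval 72.6 to 80.6) lay under the 5th percentile of the other cells. In TC71 the share was 28.5% (21.9 to 35.9). The cells were chosen on genes of the same wave, so the direction is not independent of the rule.

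Several mitotic genes past 1.5-fold in CHLA9 were not past it in TC71. CCNB1, the cyclin that drives entry into mitosis, gave log2 ratios of -3.20 in CHLA9 and -0.38 in TC71. CDC20, an activator of the anaphase-promoting complex, gave -2.90 and 0.06, and CCNB2 -2.27 and 0.01. PTTG1, the securin, was -0.71 in CHLA9 and 0.32 in TC71, and TUBB4B, a tubulin, -1.22 and 0.03. JPT1, past the limit in neither line, had 741 against 917 CPM in CHLA9 and 1037 against 1038 in TC71. Whether these differences between the lines exceed the spread between libraries was not tested.

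**Figure D3:**
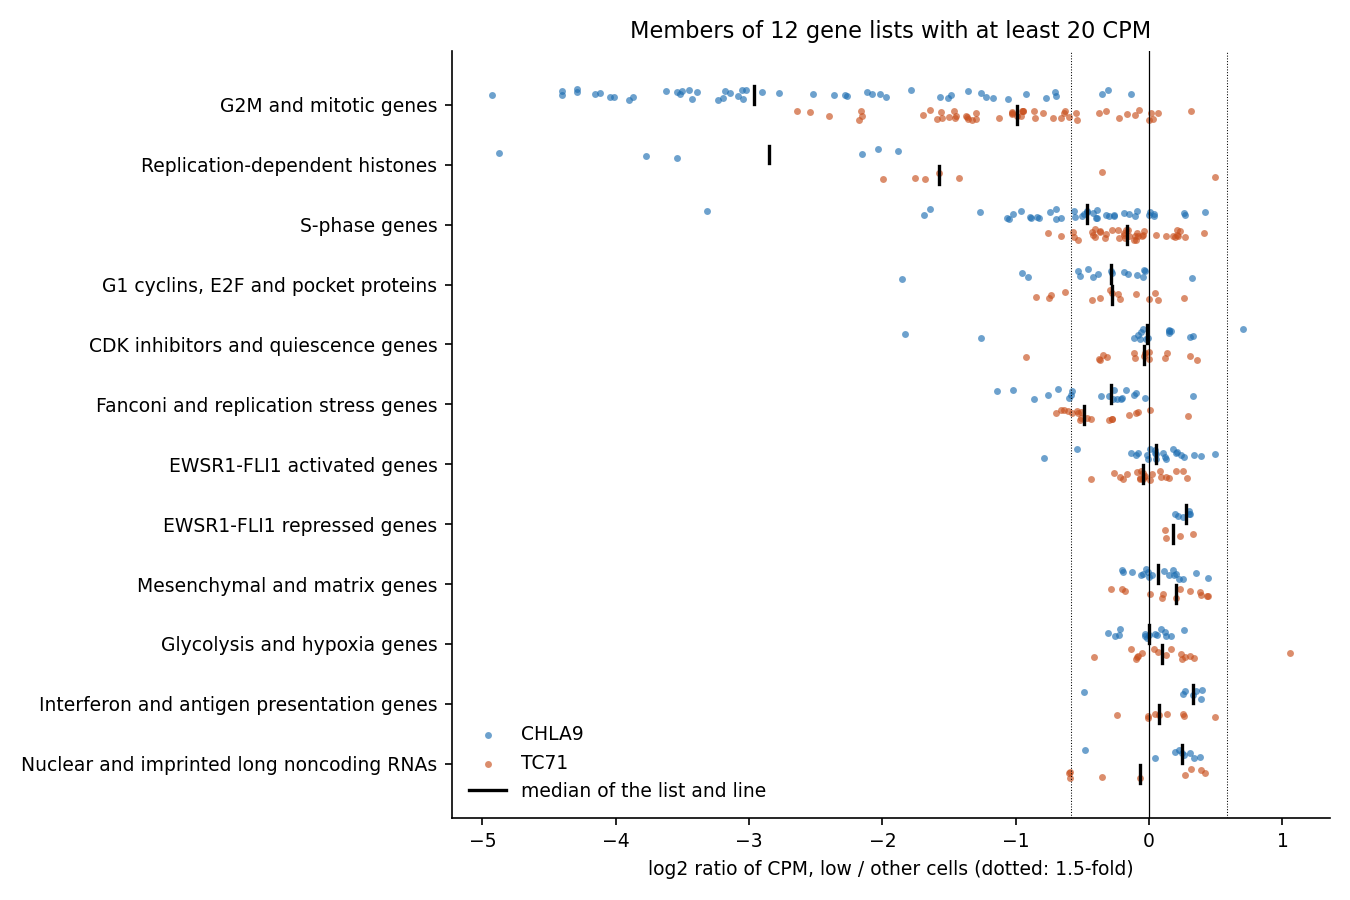
Log2 ratio of CPM, low over other cells, of the tested members of 12 gene lists (points, coloured by line) with the median of each list and line (black bars) and 1.5-fold as dotted lines. The mitotic members of CHLA9 reach -4.93, those of TC71 lie nearer 0 around a median of -0.99, and the mesenchymal, interferon and EWSR1-FLI1-repressed lists sit slightly above 0.

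The result in TC71 depended on which rule genes chose the cells. When the 5 G2M genes alone were used, the mitotic list gave log2 ratios of -1.49 in CHLA9 and -0.62 in TC71. When the 5 S-phase genes alone were used, it gave -0.24 in CHLA9 and 0.21 in TC71, and the genes lower in both lines numbered 33. The cells chosen by these gene sets overlapped little, with 33.8% of the 452 cells shared in CHLA9 and 18.6% of the 172 cells in TC71. The lowest 10% by the S-phase and G2M lists without rule genes held 72.1% of the low cells in CHLA9 and 43.0% in TC71.

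Histone transcripts made with DNA replication were also lower. All 6 tested histone genes of CHLA9 were lower past 1.5-fold, as were 5 of 7 in TC71. HIST1H4C, a histone H4 gene, was at 145 against 1688 CPM in CHLA9 and at 451 against 1342 CPM in TC71. HIST1H1E, a linker histone, was at 17.7 against 78.8 CPM and 31.6 against 126, and HIST1H1C at 25.7 against 94.9 and 49.5 against 167. The exceptions in TC71 were HIST1H2BC (-0.35) and HIST1H2AC (0.50). Most such transcripts end without a poly(A) tail, so a poly(A)-primed library counts only part of them.

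Against all other cells, S-phase genes other than histones differed far less. In CHLA9, 16 of 41 tested members were lower past 1.5-fold (median -0.47), and in TC71 2 of 40 (median -0.17). The shares among all genes tested were 4.86% in CHLA9 and 3.78% in TC71, so the count in TC71 does not set this list apart. Of the 2 lower in both lines, POLA1, the catalytic subunit of the priming polymerase, gave -0.70 and -0.76. Of 40 S-phase members tested in both lines, 29 were below 0 in both and 5 above 0 in both. UNG, a uracil DNA glycosylase whose gene is active at the entry into S phase, was at 86.3 against 64.6 CPM in CHLA9 and at 93.6 against 70.6 in TC71, ratios of 0.42 (0.33 to 0.50) and 0.41 (0.26 to 0.55). MCM5, a subunit of the replicative helicase, gave 0.26 and 0.23, CDCA7 0.27 and 0.20, and MCM6 near 0. UNG did not keep this direction when the 5 S-phase genes chose the cells, with -0.36 and -0.56, nor against only the next 30% of cells, with -0.36 and -0.08. Against those cells the summed S-phase list gave -0.51 in CHLA9 and -0.25 in TC71, and the mitotic list -0.68 and -0.18. In TC71 the S-phase difference was then the larger.

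The rule genes are given only as a description of the choice. UBE2C, a mitotic member, was at 16.0 against 226 CPM in CHLA9 and 54.1 against 232 in TC71, and CENPF at 234 against 1409 and 199 against 579. MCM2 was at 86.5 against 94.3 CPM in CHLA9 and 43.3 against 59.1 in TC71. PCNA was at 180.0 against 309 CPM and at 185 against 271. RRM2, a subunit of ribonucleotide reductase active in S phase, was at 32.8 against 251 CPM in CHLA9 and 108 against 198 in TC71.

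Across the 10 bins of the score the waves peaked in different bins. The score that orders the bins is itself made of S-phase and mitotic genes, so these peaks are not independent of the rule. The summed S-phase list stood at 5203 CPM in the low cells of CHLA9, reached 8115 in bin 6 and was 4734 in bin 10. In TC71 it went from 4789 to 6015 CPM in bin 6 and 4104 in bin 10. HIST1H4C was highest in bin 8 of both lines, at 2811 and 2159 CPM. The mitotic list was highest in bin 10, at 18567 CPM in CHLA9 and 14371 in TC71. UNG was highest in bin 2 of CHLA9 (115 CPM) and bin 3 of TC71 (106 CPM). The median UMIs per cell also went up, from 29714.5 to 46810.0 in CHLA9 and from 29090.5 to 44081 in TC71.

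**Figure D4:**
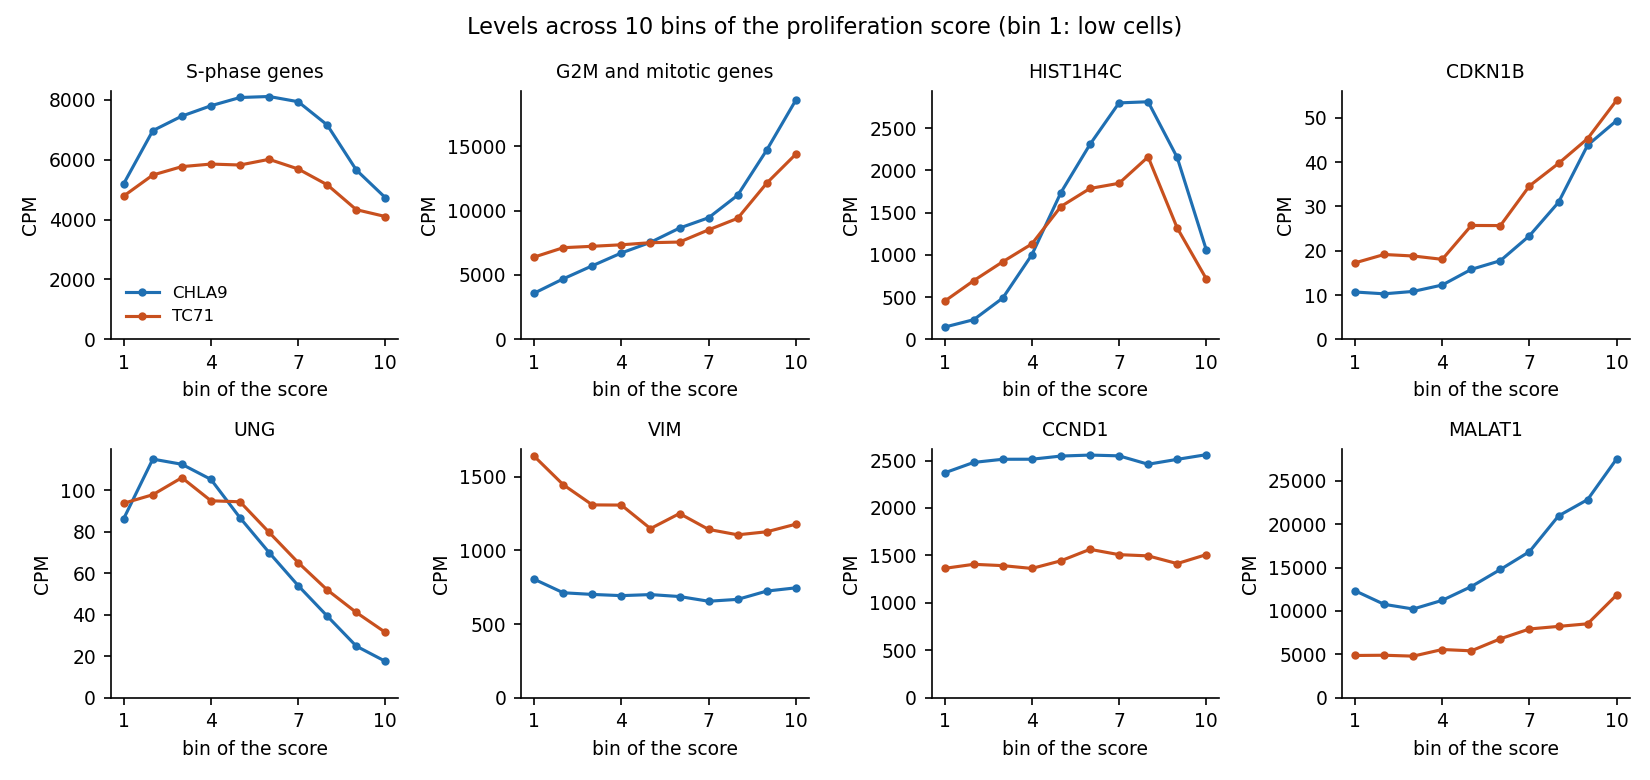
CPM of 2 lists and 6 genes (y axes, from 0) in 10 equal bins of the proliferation score (x axis, bin 1 being the low cells), with CHLA9 in blue and TC71 in orange. The S-phase list is highest in bin 6, HIST1H4C in bin 8, and the mitotic list and CDKN1B in bin 10, where UNG is lowest.

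CDKN1B and CDKN2C, inhibitors of cyclin-dependent kinases, were at lower levels in the low cells. CDKN1B, which encodes p27 and is a classic marker of arrested cells at the protein level, was at 10.7 against 25.7 CPM in CHLA9 and at 17.3 against 32.7 in TC71, ratios of -1.26 (-1.51 to -1.03) and -0.92 (-1.26 to -0.60). Across the bins it was highest, at 49.4 and 54.0 CPM in bin 10. CDKN2C, which encodes p18, gave -1.83 in CHLA9 and -0.31 in TC71. CDKN1A, the p53-induced p21 gene, was under the limit of 20 CPM, at 0.141 against 0.274 CPM in CHLA9 and 8.53 against 7.08 in TC71. Against only the next 30% of cells by the score, the CDKN1B ratio was -0.06 in CHLA9 and -0.11 in TC71, and it was 0.29 in TC71 when the 5 S-phase genes chose the cells.

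Of the other quiescence genes, few stood out. In this list 2 of 16 tested members were lower and 1 higher past 1.5-fold in CHLA9, and 1 of 15 lower and 0 higher in TC71. The higher gene was BTG2, an antiproliferative p53 target, at 47.8 against 29.4 CPM in CHLA9 and 13.7 against 11.1 in TC71. ID2, an inhibitor of helix-loop-helix factors, gave 0.33 and 0.36, and CITED2, a cofactor of CBP and p300, 0.31 and 0.30. The p53 target list had no member past 1.5-fold in either line, of 9 tested in CHLA9 and 7 in TC71. Over all genes tested, 4.86% were lower and 0.212% higher past it in CHLA9, and 3.78% and 0.0845% in TC71. With so few members, this count does not set the p53 list apart. CCND1, the D-type cyclin of G1, was at 2370.2 against 2523 CPM in CHLA9 and 1364 against 1459 in TC71, and E2F1 gave -0.03 and 0.26. FOXM1, the regulator of the mitotic wave, was lower at -1.86 and -0.63.

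Genes of the Fanconi anemia pathway and the replication stress response were mostly below 0, with 1 of 20 tested members above 0 in CHLA9 and 2 of 20 in TC71. In CHLA9, 6 of 20 tested members were lower past 1.5-fold with a median of -0.28, and in TC71 4 of 20 with a median of -0.49. Among all genes tested, 4.86% were lower past it in CHLA9 and 3.78% in TC71, with medians of -0.04 and -0.08. FANCD2, which with FANCI forms the clamp at stalled forks, was at 22.6 against 45.9 CPM in CHLA9 and 28.1 against 45.7 in TC71. FANCI was at 50.8 against 112 and 59.1 against 88.2 CPM, ratios of -1.14 and -0.58. FANCA gave -0.58 and -0.15, and FEN1, the flap endonuclease, -0.57 and -0.19. Across the bins of the score FEN1 was highest in bin 6 of both lines, at 163 and 170 CPM. It was lowest in bin 10, at 70.7 and 83.4 CPM. FANCA stood at 26.7 and 25.5 CPM in bin 10, against 25.4 and 32.3 in the low cells. FANCD2 and FANCI were lowest in the low cells of both lines. RNASEH2C, a subunit of the enzyme that cuts RNA in R-loops, went opposite ways at -0.17 and 0.29.

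No gene was higher past 1.5-fold in both lines, but 12 were past 0.32 on the log2 scale in both, a limit added after the values were seen. LINC02001, a noncoding RNA, led with 48.9 against 32.6 CPM in CHLA9 and 30.6 against 21.6 in TC71, ratios of 0.59 and 0.50. Its levels in bins 2 and 3 of the score were close to those of the low cells, at 48.5 and 47.0 CPM in CHLA9 and 32.3 and 30.3 in TC71. KRT18 gave 0.41 and 0.51, UNG 0.42 and 0.41, IFITM3, an interferon-induced membrane protein, 0.39 and 0.50, SNHG8, a host of small nucleolar RNAs, 0.38 and 0.42, and TIMP1, an inhibitor of matrix proteases, 0.35 and 0.39. MAP1LC3B, the autophagosome protein LC3B, gave 0.42 and 0.33, and the mitochondrial membrane protein TSPO 0.45 and 0.31.

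No mesenchymal gene or gene that the fusion represses passed 1.5-fold among those tested. Over all genes tested, 4.86% were lower and 0.212% higher past it in CHLA9, and 3.78% and 0.0845% in TC71. With so few members, this count does not set these lists apart. VIM, the mesenchymal intermediate filament, was at 804 against 699 CPM in CHLA9 and 1638 against 1216 in TC71. TMSB10, a thymosin that binds actin, gave 0.22 and 0.23. The summed mesenchymal list gave log2 ratios of 0.16 (0.15 to 0.17) and 0.30 (0.28 to 0.32), with 0 of 18 and 0 of 13 tested members past 1.5-fold. Above 0 were 10 members in each line, but of the 10 tested in both lines only 3 were above 0 in both. Of low cells, 15.3% in CHLA9 (12.1 to 18.9) and 18.6% in TC71 (13.1 to 25.2) lay above the 95th percentile of the other cells for this list. All tested members of the EWSR1-FLI1-repressed list, 6 in CHLA9 and 4 in TC71, were above 0, among them S100A11 (0.30 and 0.33), LGALS1 (0.26 and 0.23) and ANXA2 (0.30 and 0.12). The list of genes the fusion activates gave 0.13 and 0.04 when summed, while the median of its members was 0.05 in CHLA9 and -0.04 in TC71. LMNA, which encodes the nuclear lamins A and C, went opposite ways, at 246 against 284 CPM in CHLA9 and 122 against 98.5 in TC71.

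**Figure D5:**
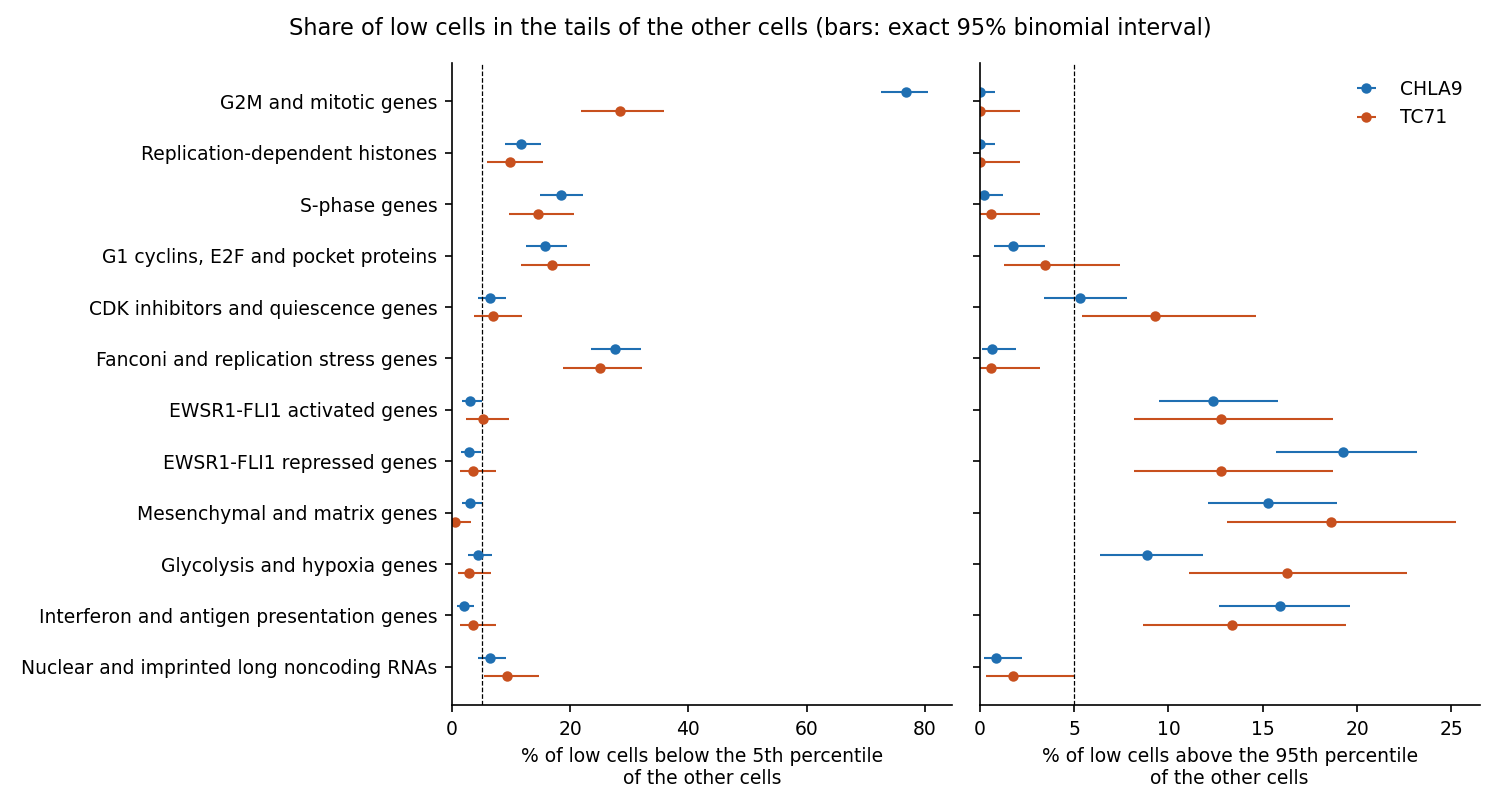
Share of low cells beyond the 5th (left) and 95th percentile (right) of the other cells of the same line for the UMIs per 10000 of 12 gene lists, with exact 95% binomial intervals as bars and 5% dashed. For the mitotic list 76.8% of CHLA9 and 28.5% of TC71 low cells lie below, and for the mesenchymal list 15.3% and 18.6% lie above.

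Further genes differed in 1 line. In CHLA9 the highest were PCDH17, a protocadherin (153 against 85.2 CPM, ratio 0.84), SNHG21 (0.82), TUBA1A, an alpha tubulin (219 against 125 CPM, ratio 0.81), SCNN1G, a subunit of the epithelial sodium channel (0.79), and BTG2. The same genes in TC71 gave 0.31, 0.43, 0.17, 0.25 and 0.30. In TC71 the highest was BNIP3, a hypoxia-induced mitophagy receptor (chr10:131967684-131981967), at 165 against 79.5 CPM, against 55.0 and 56.3 CPM in CHLA9. LINC00659 (0.79), DDIT4 (0.75), an inhibitor of mTORC1 induced by hypoxia and stress, ASS1 (0.67), of arginine synthesis, and PHLDA2 (0.62) followed. A single low cell held 52 of the 202 LINC00659 UMIs of the low cells. The 5% of cells with most UMIs held 54.0% of LINC00659 among low and 47.8% among other cells, and 41.5% and 42.3% of DDIT4. Both genes had a median of 0 in low and in other cells of TC71.

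BNIP3 was uneven among both low and other cells of TC71. The 5% of cells with most of its UMIs held 35.6% of them among low cells (9 cells) and 34.4% among other cells (78 cells), and the medians per 10000 were 0.590 in low and 0.487 in other cells. For the whole glycolysis and hypoxia list the ratio of variance to mean in cells thinned to 5000 UMIs was 7.86 in low and 3.23 in other cells of TC71, and 1.64 and 1.54 in CHLA9. Of TC71 low cells, 16.3% (11.1 to 22.7) lay above the 95th percentile of the other cells. LDHA, lactate dehydrogenase A, was at 1038 against 866 CPM in CHLA9 and 1512 against 1199 in TC71.

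Of the heat shock list, 1 gene was lower past 1.5-fold in both lines. HSPA1A, the inducible HSP70 chaperone, was at 13.4 against 34.1 CPM in CHLA9 and 27.0 against 64.8 in TC71, and its near-identical copy HSPA1B, with which reads can be shared, makes both values uncertain. DNAJB1, its cochaperone, gave -0.57 and -0.59. HSPA1A stood at 12.2 CPM in bin 2 of the score and 63.0 in bin 10 of CHLA9, and at 37.7 and 103 in TC71. DNAJB1 was at 26.4 CPM in the low cells, 26.7 in bin 2 and 57.6 in bin 10 of CHLA9, and at 20.8, 19.7 and 44.9 in TC71. The nuclear RNA MALAT1 was at 12325 against 17200.4 CPM in CHLA9 and 4875 against 7378 in TC71, and its ratio was 0.20 in CHLA9 and -0.06 in TC71 against only the next 30% of cells. The summed list of nuclear long noncoding RNAs gave -0.35 and -0.50, while the median of its members was 0.25 in CHLA9 and -0.07 in TC71. NEAT1, the RNA of paraspeckles, was higher in CHLA9 (0.19) and lower in TC71 (-0.60).

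Of the 145 lower in CHLA9 alone, 13 were in the S-phase list and 10 in the mitotic list, and 125 were also below 0 in TC71 (median -0.28). Over all genes tested the median was itself below 0, at -0.08 in TC71 and -0.04 in CHLA9. Of the 85 lower in TC71 alone, 0 were in either list, which hold 40 and 51 of the 5375 genes tested in both lines, and 78 were below 0 in CHLA9 (median -0.22). Of the replication stress list they included FANCM (-0.61, and -0.27 in CHLA9), ETAA1 (-0.63 and -0.27) and BRCA2 (-0.66 and -0.58), the last just short of the limit in CHLA9. MCL1, an apoptosis inhibitor, gave -0.62 in TC71 and -0.23 in CHLA9, and KCNQ1OT1, an imprinted antisense RNA, -0.59 and 0.23.

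A pair of CHLA9 low cells stood apart and set the values of some low-count genes. They were the only kept CHLA9 cells with at least 20 UMIs of NPY, neuropeptide Y, with 37 and 72, while no other CHLA9 cell had more than 1. They also held all 281 UMIs of NEFM, a neurofilament subunit, in the low cells, where the 4072 other cells held 3. TMSB4X, thymosin beta 4, had 449 UMIs in the pair and 76 in the remaining low cells, MMP2, a matrix protease, 54 and 45, and S100A10, the partner of annexin A2, 64 and 51. With the pair the log2 ratio of S100A10 in CHLA9 was 1.79, and without it 0.63. The pair had 56071 and 62500 UMIs and 7095 and 8063 genes. They held 191 UMIs of CD99 and 25 of NR0B1, which is 1611 and 211 CPM, against 1129 and 46.9 CPM in the other cells. FLI1 had 1 UMI and NKX2-2 0 in the pair, where the other cells stood at 38.2 and 9.72 CPM. With so few UMIs these 2 genes were not compared. These genes were singled out after their values were seen, and without the pair 121 genes were still lower in both lines.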

How the data were processed

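Single-cell RNA-seq of cultured CHLA9 and TC71 was made on the 10x 3' platform. Per the labels and the study's methods, the authors aligned reads to hg38 with Cell Ranger 3.1.0, and the deposited tables hold raw UMI counts per gene and barcode, with no normalization, for 33538 genes. Other samples of the study are not analysed here. Kept were 4524 of 5077 barcodes in CHLA9 and 1729 of 8468 in TC71. No doublet caller was run, and leaving out the 5% of cells with most UMIs was an alternative. UMIs were summed over low and over other cells and divided by their totals (Python 3.11.15, numpy 2.4.6, scipy 1.17.1, pandas 2.3.3). Intervals of levels and ratios cover counting error only, at 95%, and their calculation was tested on simulated data. Members and gene lists were chosen with earlier results of these data known.

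Genes were named by rule: the 15 lower and 15 higher genes ranked by the smaller of their ratios in the lines, the 5 highest and 5 lowest of each line, up to 4 members of each list by level and by shared change, genes the study names, and the rule genes. Other named genes, such as CCNB1, CDC20, CCNB2, PTTG1, TUBB4B, MCM5, MCM6, CDCA7, E2F1, CDKN2C, CDKN1A, BRCA2, FANCM, ETAA1 and KCNQ1OT1, were chosen after their values were seen. Gene coordinates are those of GENCODE 44 on hg38. RefSeq promoters of GRCh38.p14 were matched by Ensembl identifier and symbol. No column of another series was used. The result of 1 gene is not reported here.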

Additional observations from a re-analysis of the deposited data

Results flagged for a closer look

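In 8 of 140 named genes and 2 of 27 lists, the low cells lay on opposite sides of the other cells in the lines, with both counting intervals clear of 0. Whether the lines differ was not tested. BAX, an apoptosis effector, gave log2 ratios of -0.13 in CHLA9 and 0.15 in TC71, and HES4, a Notch target, -0.18 and 0.35. LMNA gave -0.21 and 0.31, PHGDH, of serine synthesis, -0.25 and 0.17, and RNASEH2C -0.17 and 0.29. The chaperone gene HSP90AB1 gave 0.12 and -0.044, NEAT1 0.19 and -0.60, and SQLE, of cholesterol synthesis, 0.10 and -0.28. When the 5 S-phase genes chose the cells, LMNA was at 0.40 in CHLA9. The amino acid stress list gave -0.032 and 0.089, and the cholesterol list 0.12 and -0.067.

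Barcodes removed by the limits on UMIs, genes and mitochondrial share also held the 10 rule genes. They had 38.6 rule UMIs per 10000 in CHLA9, against 41.9 in kept cells, and 18.5 in TC71, against 23.8. No low cells were chosen among them.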

How the results depend on the processing

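No paired analysis was possible because the result comes from no test and a line has 1 library, and for the same reason no replicate could be left out. The direction of the mitotic list turned in TC71 when the 5 S-phase genes alone chose the cells, and in the other alternatives it stayed below 0 in both lines. Both lines had 121 lower genes and 0 higher genes as reported, and the values that moved are given here. With the lowest 5% of cells, 1 higher in both, lower genes numbered 416 in TC71, higher genes numbered 28 in TC71, the S-phase list gave -0.62 in CHLA9 and -0.27 in TC71, the mitotic list gave -1.64 in CHLA9 and -0.60 in TC71. With the lowest 20% of cells, 1 higher in both, the S-phase list gave -0.20 in CHLA9 and -0.0312 in TC71, the mitotic list gave -1.38 in CHLA9 and -0.50 in TC71. With cells of at least 10000 UMIs thinned to 10000 before scoring, 1 higher in both, lower genes numbered 136 in TC71, higher genes numbered 8 in CHLA9, the S-phase list gave -0.32 in CHLA9 and -0.0581 in TC71, the mitotic list gave -1.45 in CHLA9 and -0.51 in TC71. With the 5 S-phase genes of the rule alone, 33 genes were lower in both lines, 1 higher in both, lower genes numbered 209 in CHLA9 and 37 in TC71, higher genes numbered 9 in CHLA9 and 24 in TC71, the S-phase list gave -0.77 in CHLA9 and -0.47 in TC71, the mitotic list gave -0.24 in CHLA9 and 0.21 in TC71. With the 5 G2M genes of the rule alone, lower genes numbered 374 in TC71, higher genes numbered 8 in CHLA9 and 3 in TC71, the S-phase list gave -0.17 in CHLA9 and -0.00706 in TC71, the mitotic list gave -1.49 in CHLA9 and -0.62 in TC71. With mitochondrial UMIs left out of the totals, the S-phase list gave -0.41 in CHLA9 and -0.16 in TC71, the mitotic list gave -1.50 in CHLA9. With at most 10% mitochondrial UMIs, lower genes numbered 347 in TC71, higher genes numbered 12 in TC71, the S-phase list gave -0.37 in CHLA9 and -0.23 in TC71, the mitotic list gave -1.48 in CHLA9 and -0.60 in TC71. Without the 5% of cells with most UMIs, the S-phase list gave -0.46 in CHLA9 and -0.17 in TC71, the mitotic list gave -0.50 in TC71. With other cells weighted to the UMI quintiles of the low cells, higher genes numbered 5 in CHLA9, the S-phase list gave -0.41 in CHLA9 and -0.18 in TC71, the mitotic list gave -1.36 in CHLA9 and -0.45 in TC71. With other cells weighted to the mitochondrial quintiles, the S-phase list gave -0.42 in CHLA9, the mitotic list gave -1.45 in CHLA9. Against only the next 30% of cells, 15 genes were lower in both lines, lower genes numbered 128 in CHLA9 and 29 in TC71, higher genes numbered 3 in CHLA9 and 3 in TC71, the S-phase list gave -0.51 in CHLA9 and -0.25 in TC71, the mitotic list gave -0.68 in CHLA9 and -0.18 in TC71. With the mean CPM of single cells, the S-phase list gave -0.44 in CHLA9 and -0.18 in TC71, the mitotic list gave -1.45 in CHLA9 and -0.50 in TC71. With ratios centred on the median gene, higher genes numbered 11 in TC71, the S-phase list gave -0.39 in CHLA9 and -0.0656 in TC71, the mitotic list gave -1.47 in CHLA9 and -0.47 in TC71. With a minimum of 10 CPM, 1 higher in both, lower genes numbered 415 in TC71, higher genes numbered 35 in CHLA9 and 18 in TC71. With a minimum of 50 CPM, 64 genes were lower in both lines, lower genes numbered 168 in CHLA9 and 94 in TC71, higher genes numbered 5 in CHLA9 and 2 in TC71. With no minimum, 363 genes were lower in both lines, 467 higher in both, lower genes numbered 1479 in CHLA9 and 1714 in TC71, higher genes numbered 2878 in CHLA9 and 1911 in TC71. At 2-fold, 59 genes were lower in both lines, lower genes numbered 163 in CHLA9 and 67 in TC71, higher genes numbered 0 in CHLA9 and 1 in TC71. At 0.32 on the log2 scale, 303 genes were lower in both lines, 12 higher in both, lower genes numbered 752 in CHLA9 and 1024 in TC71, higher genes numbered 174 in CHLA9 and 116 in TC71. With the 5 S-phase genes alone, 26 named genes that were past 1.5-fold as reported turned direction in TC71, with log2 ratios of ASPM 0.37, AURKB 0.089, CCNF 0.46, CDCA2 0.19, CDK1 0.20, CDKN1B 0.29, CENPA 0.35, CENPF 0.42, CKAP2L 0.066, DYRK1A 0.015, ESPL1 0.083, FAM83D 0.12, HMGB2 0.096, INCENP 0.34, KIF14 0.63, KIF20A 0.63, KIF23 0.29, KIFC1 0.34, MALAT1 0.31, MCL1 0.16, MKI67 0.14, NDC80 0.16, PIF1 0.47, SGO2 0.65, TOP2A 0.47, UBE2C 0.65. Of the results past 1.5-fold, KIF20A in TC71 also turned against only the next 30% of cells, at 0.041. Of 5261 recomputed values of named genes and lists over 19 planned and 2 added alternatives, 3947 lay inside the counting interval of the reported value and 222 had another sign. The limit of 0.32 on the log2 scale and the removal of the pair of CHLA9 cells were chosen after seeing the data. The causes were not tested. Depth limits genes under 20 CPM, above all in the 172 low cells of TC71.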

Other observations

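Lists not described above differed by small amounts. The summed log2 ratios were 0.26 in CHLA9 and 0.14 in TC71 for interferon and antigen presentation genes, 0.15 and 0.11 for lysosome and autophagy genes, 0.13 and 0.10 for immediate early genes, and 0.14 and 0.25 for senescence-associated secreted genes. They were -0.13 and -0.34 for FET and ETS genes, -0.10 and -0.11 for heat shock and chaperone genes, -0.08 and 0.01 for apoptosis genes, 0.15 and 0.03 for neural genes, and 0.00 and 0.13 for Wnt, Notch and TGF-beta response genes. SPARC, a matrix glycoprotein, was at 6.82 against 3.87 CPM in CHLA9, under the limit of 20 CPM, and 60.1 against 55.8 in TC71.

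The following genes under 20 CPM in TC71 were chosen after their values were seen. MBD3L2, a member of a family of near-identical copies whose reads can be shared, had 97 UMIs in the low cells of TC71, 91 of them in 9 cells, against 238 UMIs in the other cells. KLF2, a transcription factor, had 60 UMIs in the low and 166 in the other cells of TC71. The hypoxia-induced genes MIR210HG and PFKFB4 were at 13.1 against 4.69 and 5.83 against 2.17 CPM.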
